A study of Mus musculus with 23 samples.

Results

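The resting transcriptome of control brown adipose tissue (BAT) was described from the 6 mice of the group Ctrl RT, of 23 mice in the whole series. The members were chosen by their sample labels, which name 6 control mice at room temperature (RT). No measured value entered the choice and no other group was compared. All 6 were C57BL/6 males of 8 to 12 weeks with the genotype Mcu[fl/fl], in which loxP sites flank exon 2 of Mcu, the pore-forming subunit of the mitochondrial calcium uniporter. They lacked the UCP1-Cre transgene that deletes this exon in brown adipocytes in the BAT-Mcu-KO mice of the series. The conditional line came from embryonic stem cells of mixed 129 and BL6 origin and was then crossed to C57BL/6J, so alleles of the other strain can remain. RNA came from snap-frozen tissue that was homogenized, with all the cell types that it held. Time of day, dissection batch and library batch are not stated for these mice.

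BAT makes heat. Its adipocytes hold many small lipid droplets and many mitochondria, and in the inner membrane of these the protein UCP1 lets protons return to the matrix without making ATP. Noradrenaline from sympathetic nerves starts the process through beta-adrenergic receptors, which raise cyclic AMP, and fatty acids released from the droplets both open UCP1 and serve as fuel. Room temperature is below the thermoneutral zone of a mouse, so BAT in mice kept there is already under some sympathetic drive.

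The libraries held 11724234 to 17394689 reads assigned to genes. Between 14518 and 14601 of the 14651 genes in the table had at least 1 read in a mouse. No pair of the 6 libraries was the same library deposited again, since over the 15 pairs chi-square per degree of freedom was 10.3 to 68.9. Mice are numbered 1 to 6 as in their labels, and an error is an SD over 6 mice. Because all mice belong to 1 group, no test was made and no p-value is given. In RNA from whole tissue, fewer cells of a type and less RNA per cell cannot be told apart.

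Reads were concentrated on a small number of genes. The share of a gene is its percent of all reads of a mouse, and the gene with most reads, mt-Rnr2, took 15.4% ± 1.30 (SD, n = 6). Genes were ordered by their mean share over the 6 mice. The leading 10 took 38.4% ± 2.95, the leading 50 took 50.9% ± 2.55, the leading 100 took 56.9% ± 2.35 and the leading 1000 took 78.5% ± 1.31. With genes ordered within each mouse, it took 35 to 78 genes, 46.2 on average, to reach 50% of the reads. When the genes of the mitochondrial genome were left out, the leading 10 genes took 16.6% ± 1.37 and the leading 100 took 38.6% ± 0.664, and 229 to 262 genes made up 50% of the rest. By annotated type, protein-coding genes held 79.1% of all reads, mitochondrial ribosomal RNAs 15.8%, long noncoding RNAs 0.690% and pseudogenes 0.159%. One nuclear ribosomal RNA entry, Rn18s-rs5, added 3.97% ± 0.742.

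**Figure D1:**
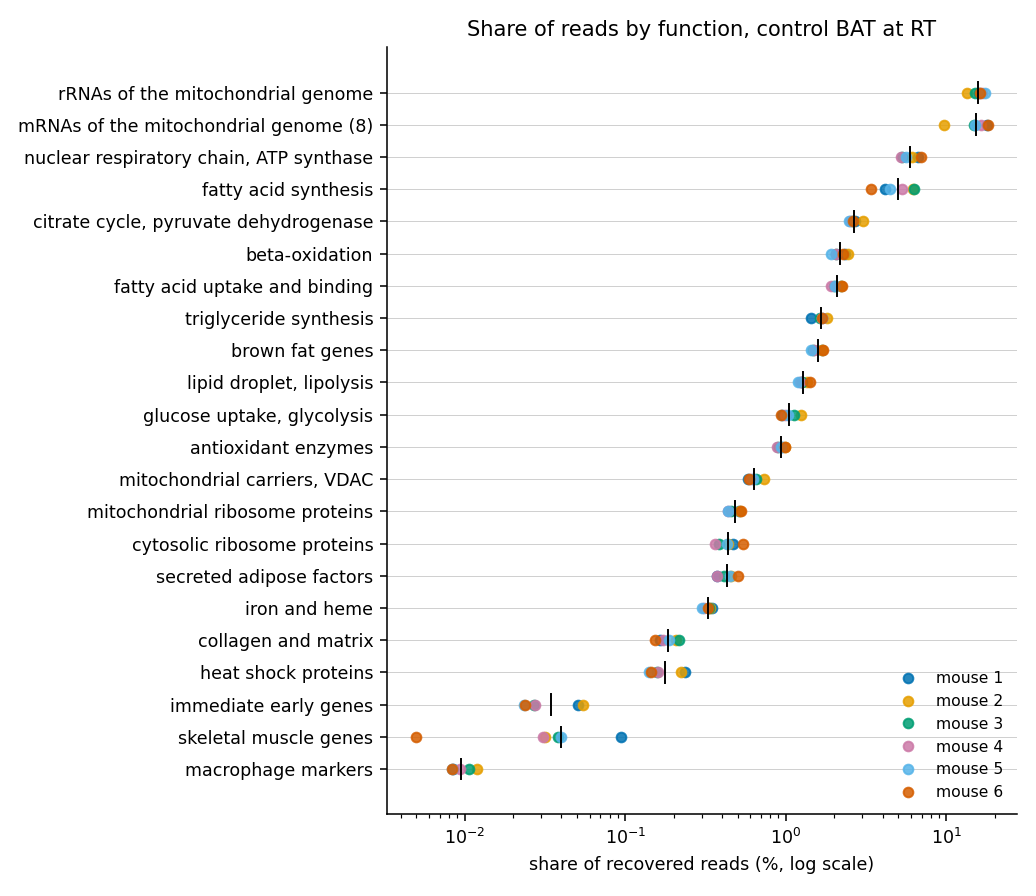
Share of recovered reads, in percent on a log scale, for 22 gene lists; each coloured point is 1 of the 6 mice and each black bar is their mean. The mitochondrial rRNAs and mRNAs lead with means of 15.8% and 15.4%, and the macrophage markers are last with 0.00952%. The skeletal muscle genes, from 0.00494% to 0.0938%, lie farthest apart between mice.

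The mitochondrial genome was the leading source of reads. It encodes 13 proteins of the respiratory chain and ATP synthase, 2 ribosomal RNAs and the mitochondrial tRNAs, and together its 23 measured genes took 33.8%, 23.1%, 30.0%, 33.3%, 32.6% and 34.5% of reads in mice 1 to 6. Mouse 2 stood below the other 5. The 8 mitochondrial mRNAs measured, the other 5 not being analysed here, took 17.8%, 9.70%, 14.9%, 16.5%, 15.2% and 18.3%. They were led by mt-Nd1 (4.32% ± 0.863), a complex I subunit, mt-Co1 (4.20% ± 0.542), the catalytic subunit of cytochrome c oxidase, and mt-Cytb (2.75% ± 0.771), the cytochrome b of complex III. Then came the complex I subunits mt-Nd5 (1.73% ± 0.463), mt-Nd4 (1.251% ± 0.221) and mt-Nd2 (1.01% ± 0.263). Lower were mt-Nd6 (0.117% ± 0.0212), which is the protein gene on the opposite strand, and mt-Nd3 (0.0130% ± 0.00547). The 2 ribosomal RNAs were far from equal in reads. There were 35.2 ± 8.24 reads of mt-Rnr2 for each read of mt-Rnr1, with a range of 28.5 to 51.1. How fully each mitochondrial RNA was captured in the libraries and mapped uniquely was not tested. These shares and ratios therefore describe reads and not amounts of RNA.

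All 8 mitochondrial mRNAs were lowest in mouse 2, where 11.9% of all genes with enough reads were lowest. For mt-Cytb the normalized counts, which are reads divided by the size factor of the mouse, were 446574, 154024, 328923, 374405, 335826 and 468186. Mouse 2 held the lowest value and the other 5 did not reach it. The share of the 8 mitochondrial mRNAs was 2.60 ± 0.531 times that of all nuclear subunits of the respiratory chain and ATP synthase, from 1.58 in mouse 2 to 3.15.

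Nuclear genes of the respiratory chain and ATP synthase were the next group. All 86 listed genes were in the table and together took 6.62%, 6.14%, 5.31%, 5.24%, 5.59% and 6.90% of reads, a mean of 5.97% ± 0.700. Complex I, which takes electrons from NADH, accounted for 1.70% ± 0.218 with 37 genes, and complex II, succinate dehydrogenase, for 0.610% ± 0.0538 with 4. Complex III with cytochrome c accounted for 0.975% ± 0.0979, complex IV, cytochrome c oxidase, for 1.36% ± 0.268 and ATP synthase for 1.48% ± 0.132. Ndufa4 was listed under both complex I and complex IV. The genes with the largest shares were Atp5b (0.583% ± 0.0495) and Atp5a1 (0.371% ± 0.0293), the beta and alpha subunits of the catalytic head of ATP synthase, Sdha (0.314% ± 0.0328), the flavoprotein of complex II, Uqcrc1 (0.253% ± 0.0251), a core subunit of complex III, and Cox4i1 (0.246% ± 0.0338), a subunit of cytochrome c oxidase.

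A share favours long genes, so levels of different genes were compared only per length. The length-scaled level is the reads of a gene divided by the length of its exons and scaled to a sum of 1000000 in each mouse. On this scale 36 of the 100 highest genes outside the mitochondrial genome were respiratory chain or ATP synthase genes, and 7 of the highest 20. The cytochrome c oxidase genes Cox6a1 (level 4206 ± 602, SD, n = 6), Cox8a (4168 ± 666) and Cox6b1 (3907 ± 591) ranked 7, 8 and 10 among nuclear genes. The citrate cycle had 8 genes in the highest 100, beta-oxidation 6, fatty acid synthesis 5 and fatty acid uptake 5. Of 87 cytosolic ribosomal protein genes none was in the highest 100, and the one with the highest share, Rpl4, took 0.0237% ± 0.00218. Only uniquely mapped reads of 25 bases were counted, so genes with near-identical copies elsewhere can lose reads. How many reads the ribosomal protein genes lost in this way was not tested, so their shares and levels can be too low.

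The lists of fuel oxidation and fatty acid uptake each took a smaller share than the respiratory chain. The 19 genes of the citrate cycle and pyruvate dehydrogenase took 2.65% ± 0.196 of reads and included Ogdh (0.248% ± 0.0285), a subunit of oxoglutarate dehydrogenase, Idh3a (0.243% ± 0.0257) and Cs (0.217% ± 0.0169), citrate synthase. The 21 genes of beta-oxidation took 2.18% ± 0.206. Acaa2 (0.366% ± 0.0401), the thiolase of the last step, Acadl (0.254% ± 0.0262) and Acadm (0.211% ± 0.0242), the dehydrogenases of long and medium chains, were the largest. The 22 genes of fatty acid uptake and binding took 2.09% ± 0.131. In this group were Fabp4 (0.572% ± 0.0859), which carries fatty acids in the cytosol, Lpl (0.477% ± 0.0185), the lipoprotein lipase that frees them from circulating triglyceride, and Cd36 (0.288% ± 0.0223), which takes them up. Lpl stayed between 0.445% and 0.491% in all 6 mice.

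Fatty acid synthesis took more reads than beta-oxidation in all 6 mice. Its 18 measured genes held 4.14%, 6.17%, 6.32%, 5.30%, 4.47% and 3.39% of reads, a mean of 4.97% ± 1.17, and the lowest of these was above the highest beta-oxidation share of 2.46%. As a share of the length-scaled level, which is defined above, the lists were closer, with 1.76%, 2.94%, 2.75%, 2.30%, 1.88% and 1.43% for fatty acid synthesis and 1.77%, 2.16%, 1.66%, 1.65%, 1.56% and 1.72% for beta-oxidation. On that scale fatty acid synthesis was the higher in mice 2 to 5 only. Most of it came from 2 genes. Scd1 (2.33% ± 0.680), the desaturase that makes oleate, had the largest share of any nuclear mRNA, and Fasn (1.50% ± 0.378), fatty acid synthase, the second largest. Thrsp (0.396% ± 0.0263), a regulator of lipogenesis also called Spot 14, and Acly (0.227% ± 0.0793), which makes cytosolic acetyl-CoA from citrate, followed. Per length Scd1 had the highest level of the nuclear genes with a matched length at 10853 ± 3821.

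The 17 genes of triglyceride synthesis took 1.65% ± 0.126 of reads, led by Pck1 (0.443% ± 0.0256), phosphoenolpyruvate carboxykinase, which in fat feeds glycerol synthesis, Dgat2 (0.357% ± 0.0670) and Gpd1 (0.320% ± 0.0421), glycerol-3-phosphate dehydrogenase. Lipid droplet and lipolysis genes took 1.29% ± 0.0858, with Cidea (0.391% ± 0.0499), a droplet protein, and Pnpla2 (0.302% ± 0.0222), the first lipase of the droplet, in the lead. Glucose uptake and glycolysis took 1.04% ± 0.119, of which Aldoa (0.389% ± 0.0520) was the largest part. Antioxidant enzymes took 0.939% ± 0.0457, led by Gpx3 (0.202% ± 0.0256), mitochondrial carriers 0.630% ± 0.0551, mitochondrial ribosomal proteins 0.482% ± 0.0429 and cytosolic ribosomal proteins 0.437% ± 0.0632. Secreted adipose factors took 0.428% ± 0.0525, chiefly Cfd (0.143% ± 0.0320), adipsin, and Adipoq (0.122% ± 0.0140), adiponectin. Among the 20 genes of highest nuclear level 1 was outside all lists. Car3, carbonic anhydrase 3, took 0.698% ± 0.122, the third largest share of any nuclear mRNA, and its level of 5451 ± 739 ranked 5 among nuclear genes. The lists overlap by a few genes, so their shares do not add up.

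Brown fat genes were then ranked by length-scaled level among the 14165 genes with a length. Of 52 listed genes 49 were in the table and took 1.58% ± 0.121 of reads. Their levels ran from 8936 at rank 10 to 0.214 at rank 13807, with 4 genes in the highest 100, 16 in the highest 1000 and 9 below rank 7000. Of the 48 pairs of neighbours in the order, 45 overlapped in their 6 values, so the order is firm only at its few gaps.

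The effectors of heat production and its fuel led. Cox8b, the muscle and brown fat form of a cytochrome c oxidase subunit, had levels of 10602, 8675, 6384, 6499, 9245 and 12212 in mice 1 to 6 and ranked 10. Cidea had 7865, 8313, 7388, 7488, 7157 and 8876 and ranked 11. Ucp1 had 6829, 8752, 7009, 6843, 5978 and 6455 and ranked 12. These 3 genes overlapped one another and lay above every other brown fat gene, since the lowest Ucp1 level was above the highest of Cox7a1. Cox7a1, another tissue form of a cytochrome c oxidase subunit, followed at rank 55 with levels from 1108 to 2403, and no value of it overlapped the next gene, Plin5, from 448 to 686. Plin5, which ties droplets to mitochondria, ranked 152 and Letmd1, a mitochondrial inner membrane protein, ranked 196 (398 ± 78.9).

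**Figure D2:**
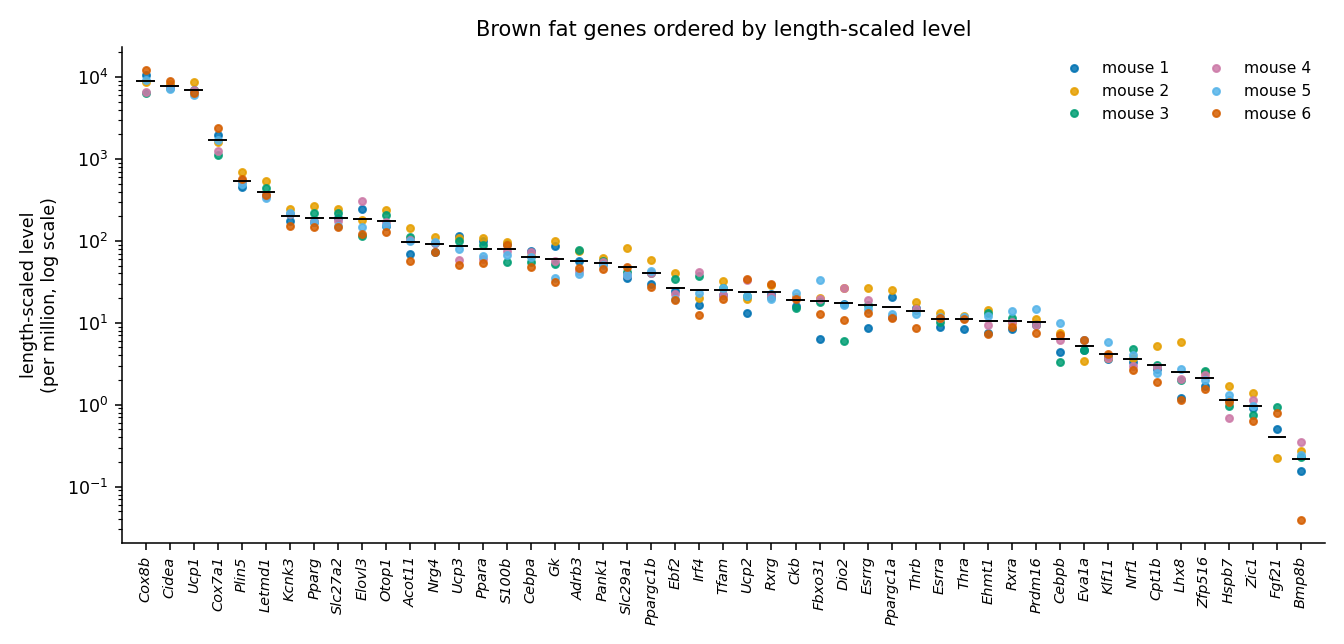
Length-scaled level on a log scale, summing to 1000000 over all genes of a mouse, of the 49 brown fat genes in the table, ordered by their mean; points are the 6 mice, black bars the means, and values of 0 are not drawn (Fgf21 in 2 mice). A gap separates Cox8b, Cidea and Ucp1 from Cox7a1, and below Letmd1 the values of neighbouring genes overlap almost throughout.

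Channels, enzymes and secreted factors of brown adipocytes filled the middle ranks. Kcnk3, a potassium channel, ranked 361 (201.3 ± 33.7), Slc27a2, a fatty acid transporter, 384 (188 ± 37.6), Elovl3, an elongase of very long fatty acids, 389 (186 ± 76.7), and Otop1, a proton channel, 404 (176 ± 41.3). Nrg4, a secreted factor, ranked 747 (90.4 ± 14.5) and Ucp3, the muscle relative of UCP1, 786 (85.4 ± 26.9). Adrb3, the beta-adrenergic receptor of adipocytes, ranked 1156 with levels of 57.1, 74.6, 76.8, 42.4, 39.7 and 46.3. Dio2, which makes active thyroid hormone within the cell, ranked 3139 with 16.8, 26.5, 6.01, 26.7, 16.3 and 11.0, and its highest value was more than 4-fold above its lowest.

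Transcription factors and cofactors were spread over these ranks and lower ones. Pparg, the master regulator of fat cells, led them at rank 377 (191 ± 44.7), ahead of Ppara at 860 (79.3 ± 22.8) and Cebpa at 1031 (63.5 ± 10.4). Ppargc1b, a coactivator of mitochondrial genes, ranked 1546 (39.9 ± 11.3), Ebf2 2201 (26.7 ± 8.67) and Tfam, which maintains mitochondrial DNA, 2331 (24.9 ± 4.75). Ppargc1a, the relative of Ppargc1b, ranked 3372 (15.7 ± 5.91) and Prdm16, which sets brown fat identity, 4516 (10.3 ± 2.53). Zic1, a developmental marker of this depot, had 24 to 43 reads and ranked 11782. Fgf21, a hormone that BAT secretes in the cold, had 0 to 5 reads and Bmp8b 1 to 7 reads, so their levels are near the limit that these depths can show. Cpt1b, the gate of fatty acids into mitochondria, was listed at rank 8657, but 2744 of its 3372 exonic bases are shared with the overlapping gene Gm44502, and counting without strand can split or discard such reads.

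Within pairs of related genes 1 form was often far above the other, and the pairs below were chosen after their values were seen. The cytochrome c oxidase subunits differed in kind. Cox8b was 2.14-fold above Cox8a, higher in 6 of 6 mice with a range of 1.77 to 2.44. Cox7a1 was 1.07-fold above Cox7a2 and higher in 3 of 6, so these do not differ beyond their spread. Cox4i1 was 365-fold above Cox4i2. Ucp1 was 81.7-fold above Ucp3 and 292-fold above Ucp2. Slc2a4, the insulin-sensitive glucose transporter GLUT4, was 68.1-fold above Slc2a1, and Hk2 was 16.0-fold above Hk1. Dgat2 was 23.5-fold above Dgat1, and both catalyse the last step of triglyceride synthesis. Scd1 was 538-fold above Scd2. Acacb, the mitochondrial form of acetyl-CoA carboxylase, was 2.79-fold above Acaca, the cytosolic form, in 6 of 6 mice. Plin5 was 5.13-fold above Plin1. Gpd1 was 40.8-fold above Gk, and both make glycerol-3-phosphate. Adrb3 was 22.9-fold above Adrb1. Ppargc1b was 2.55-fold above Ppargc1a in 6 of 6 mice. Thrb and Thra, the thyroid hormone receptors, overlapped, with Thrb at 0.780 to 1.79 times the level of Thra.

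The uniporter, which the series targets in its other genotype, was low next to the respiratory chain. Mcu had normalized counts of 97.2, 133, 92.5, 136, 117 and 81.4, a level of 2.87 ± 0.873 and a rank of 8829 among all genes with a length. Smdt1, which encodes the scaffold EMRE, had a level of 244 ± 32.3, far above all other uniporter genes. Among those between Smdt1 and Mcu were Mcur1 (39.7 ± 7.09), a regulator, the gatekeepers Micu2 (10.8 ± 2.59) and Micu3 (7.90 ± 0.932), and Slc8b1 (5.51 ± 1.09), the exchanger that returns calcium to the cytosol. Ccdc109b, the inhibitory relative of Mcu, was lowest (0.984 ± 0.489). Of the 7 with enough reads to judge their spread 2, Smdt1 and Micu3, had a highest mouse at most 25% above the lowest and none reached 4-fold. Over all genes 9.18% and 1.18% did so.

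Marker genes of other cells were present at far lower counts than those of brown adipocytes. All 14 brown adipocyte markers were in the table, with a summed normalized count of 142447 to 200404, and none had 0 reads in a mouse. The labelled tissue thus held its defining markers in all 6 mice. Of 11 white adipocyte markers 7 were in the table, summing to 1083 to 1840. Endothelial markers (10 of 10) summed to 6769 to 8929, pericyte and smooth muscle markers (8 of 8) to 6622 to 8752, fibroblast and progenitor markers (9 of 9) to 4722 to 7620, macrophage markers (11 of 12) to 1014 to 1388 and Schwann cell and nerve markers (8 of 10) to 602 to 940. Erythroid markers (6 of 7) summed to 2983 to 6966, nearly all from the haemoglobin genes such as Hbb-bs. Of T lymphocyte markers 0 of 10 were in the table, of B lymphocyte markers 3 of 8, of neutrophil markers 1 of 7 and of epithelial markers 1 of 8.

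Variation between mice was then described for the 9491 genes whose normalized counts averaged at least 50. The spread of a gene is the SD over 6 mice of log2(normalized count + 1), and its median was 0.233 with quartiles of 0.168 and 0.320. A gene was said to vary when its highest mouse was at least 4-fold above its lowest on the scale of normalized count + 1, and to be steady when the highest was at most 25% above the lowest. By these rules 112 genes (1.18%) varied and 871 (9.18%) were steady. At a mean of 1000 or more, 205 of 1244 genes were steady and 4 varied. The genes nearest the 4-fold limit were Gmpr at 4.03-fold inside it and Insig1 at 4.00-fold just outside. The varying genes were highest most often in mouse 1 (38 of 112) and mouse 5 (29), and lowest most often in mouse 6 (46). 

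**Figure D3:**
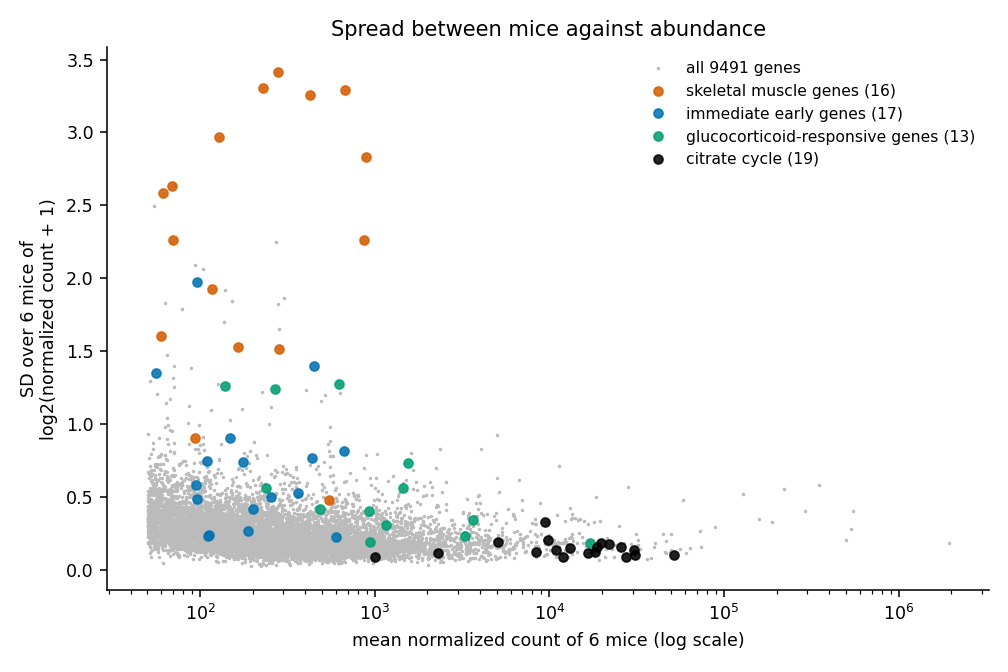
SD over 6 mice of log2(normalized count + 1) against the mean normalized count on a log scale, for 9491 genes (grey) and 4 gene lists (coloured, with the number of genes). Skeletal muscle genes reach the top of the plot at an SD of 3.41, and the median SD is 0.579 for immediate early genes, 0.414 for glucocorticoid-responsive genes and 0.136 for citrate cycle genes, against 0.233 over all genes.

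Genes of skeletal muscle took many of the largest spreads. Of 16 muscle markers with enough reads 15 varied, against 1.18% of all genes, and they filled 11 of the 20 places with the largest spread. Their summed normalized count was 12391, 3679, 4763, 3899, 4870 and 667 in mice 1 to 6, an 18.6-fold range. Mouse 1 was highest, mouse 6 was lowest, and the 4 others lay within 3679 to 4870. Acta1, skeletal muscle actin, had 2475, 623, 887, 567, 820 and 7.95. Ttn, the giant sarcomere protein titin, had 1722, 751, 897, 815, 1029 and 21.8. Ckm, muscle creatine kinase, had 830, 207, 278, 191, 179 and 0, so that mouse 1 was at least 278-fold higher than mouse 6 against a floor of 3 reads in mouse 6. In mouse 6, 8 of the 20 muscle genes in the table had 0 reads and 12 had 3 reads or fewer. Mouse 6 was lowest in 17 of the 20 and mouse 1 was highest in 17. Without mouse 6 none of them was among the 20 genes with the largest spread, 11 of the 16 markers varied and the range of the sum was 3.37-fold, and without mouse 1 it was 7.30-fold with 15 varying.

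Myl1, a myosin light chain, was the exception. Its counts were 888, 406, 336, 528, 556 and 548, and mouse 6 was in the middle. The glycolytic genes Eno3 (37.7 to 349) and Pgam2 (13.9 to 175), muscle forms of their enzymes, also varied and were lowest in mouse 6. Of the 20 genes of their list with enough reads 2 varied and 6 were steady. Over all genes the shares were 1.18% and 9.18%. The brown adipocyte markers did not share the low values of the muscle genes in mouse 6. Their summed count was 185627, 152709, 146302, 154241, 142447 and 200404 in mice 1 to 6. The median deviation of the 12 markers with enough reads from the mean of the 6 mice, on the log2 scale, was highest in mouse 1. It was 0.20 there, -0.06 in mouse 6 and lowest in mouse 5 at -0.18. Ucp1 had normalized counts of 70028, 65699, 61295, 63554, 53146 and 69429.6. Muscle genes took 0.0938% of reads in mouse 1 and 0.00494% in mouse 6.

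Immediate early genes, which respond to growth factors and cyclic AMP within minutes and need no new protein, were the next group. Of 17 with enough reads 8 varied, against 1.18% of all genes: Fos, Egr1, Nr4a3, Nr4a1, Dusp1, Junb, Cyr61 and Myc. Without mouse 5 it was 4 of the 17, and with any other mouse left out 6 to 8. Several of these genes are known to carry cyclic AMP response elements in their promoters, whose core letters are TGACG or, on the other strand, CGTCA. The 250 bases before the start are shown for the 4 of the 8 that were found to hold 2 or more copies of these letters. They are read 5′ to 3′ along each gene from RefSeq on GRCm38.p6, with the copies in capitals.

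Fos, chr12:85473640-85473889, plus strand: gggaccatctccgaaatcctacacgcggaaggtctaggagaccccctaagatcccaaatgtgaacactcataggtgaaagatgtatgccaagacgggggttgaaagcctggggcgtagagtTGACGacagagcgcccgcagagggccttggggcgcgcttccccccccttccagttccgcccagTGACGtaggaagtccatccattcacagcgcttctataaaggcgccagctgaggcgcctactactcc
Nr4a3, chr4:48045055-48045304, plus strand: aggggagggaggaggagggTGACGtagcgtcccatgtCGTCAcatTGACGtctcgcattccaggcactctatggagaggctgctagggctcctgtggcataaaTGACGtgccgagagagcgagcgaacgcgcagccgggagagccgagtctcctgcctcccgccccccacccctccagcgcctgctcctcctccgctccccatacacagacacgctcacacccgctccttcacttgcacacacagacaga
Nr4a1, chr15:101266596-101266845, plus strand: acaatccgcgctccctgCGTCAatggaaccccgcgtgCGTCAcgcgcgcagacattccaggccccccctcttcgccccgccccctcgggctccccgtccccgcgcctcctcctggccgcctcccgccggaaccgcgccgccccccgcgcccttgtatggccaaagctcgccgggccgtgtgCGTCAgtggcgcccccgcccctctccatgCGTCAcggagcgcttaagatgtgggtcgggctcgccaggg
Dusp1, chr17:26508473-26508722, minus strand: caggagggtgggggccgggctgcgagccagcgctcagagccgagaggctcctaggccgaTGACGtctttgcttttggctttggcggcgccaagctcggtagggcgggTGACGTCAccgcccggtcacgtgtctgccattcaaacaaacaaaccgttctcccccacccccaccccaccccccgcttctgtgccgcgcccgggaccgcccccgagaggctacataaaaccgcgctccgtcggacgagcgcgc

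Fos held 2 copies, Nr4a3 4, Nr4a1 4 and Dusp1 3, of which 1 pair in Dusp1 lies in the longer palindrome TGACGTCA, where both words overlap. Junb, which also varied, held 1 copy and is not shown. Nr4a2 and Btg2, which did not vary, held 4 and 2 copies. Of all 32851 RefSeq promoters 17.8% held at least 1 copy in the same 250 bases, 3.90% held 2 or more and 1.55% held TGACGTCA. Among promoters of genes in the table the share with at least 1 copy was 27.0%. Of the 19 immediate early genes that were measured and had a promoter entry, 10 held a copy, namely all 5 that varied and had an entry, 3 of the 8 with enough reads that did not vary, and 2 with fewer reads. A match of letters is a description of the sequence and not evidence of binding in these mice.

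Their values were highest in the same mice. Fos, a subunit of the factor AP-1, had 385, 97.9, 10.4, 40.3, 9.32 and 35.8. Egr1, a zinc finger factor, had 1148, 779, 203, 306, 83.9 and 186. Nr4a3, a nuclear receptor, had 158, 92.1, 19.8, 23.9, 25.9 and 13.9. In each of these, mice 1 and 2 were above the other 4. Dusp1, a phosphatase of MAP kinases, had 883, 1425, 517, 479, 338 and 341. Of the 17 genes 15 were highest in mouse 1 or 2, as were 30.1% of all genes, and 11 had both their highest values in mice 1 and 2, as had 5.39% of all genes. Nr4a1 had 256, 253, 89.7, 88.1, 52.8 and 147. Jun and Klf4 did not reach 4-fold, with 409, 333, 199, 165, 202 and 210 for Jun.

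Heat shock genes shared part of this order. Of 13 with enough reads 1 varied, against 1.18% of all genes. It was Hsph1, a chaperone of the HSP110 family, with 1285, 638, 304, 378, 207 and 136. Hsp90aa1 had 1010, 659, 307, 515, 297 and 293 and Hspa8 had 2535, 1650, 1295, 1542, 1486 and 1496. Of the 13 genes 11 were highest in mouse 1, against 15.8% of all genes. Mouse 1 was also the mouse with most muscle reads and with most reads in all (17394689). What part these have in the order of the heat shock and immediate early genes was not tested.

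Several genes that glucocorticoids raise in many tissues were lowest in mouse 1. Of 13 with enough reads 3 varied, against 1.18% of all genes. Fkbp5, a chaperone of the glucocorticoid receptor, had 45.6, 203, 154, 326, 504 and 386. Zbtb16, a zinc finger factor, had 93.4, 597, 369, 887, 1023 and 763, and Ddit4, an inhibitor of mTORC1, had 19.7, 156, 147, 125, 265 and 119. Mouse 1 was the lowest in all 3 and mouse 5 the highest. Without mouse 1, 0 of the 13 varied. Tsc22d3, known as GILZ, fell short of the rule with 580, 1901, 1092, 1583, 1967 and 2240, and mouse 1 was again the lowest. Over the list 6 of 13 were lowest in mouse 1 and 6 were highest in mouse 5, against 17.0% and 17.3% of all genes. Pdk4 (normalized counts from 13521 to 18997) and Angptl4 (2546 to 3807), which are also induced by fasting, did not have this order. Of 17 circadian clock genes none varied and 1, Hlf, was steady, where 1.18% and 9.18% of all genes did so. Dbp, an output gene of the clock whose RNA swings over the day, had 36.5, 71.8, 94.4, 54.4, 68.3 and 36.8, and Per1, a clock gene that glucocorticoids also raise, had 549, 1015, 846, 921, 1274 and 988.

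**Figure D4:**
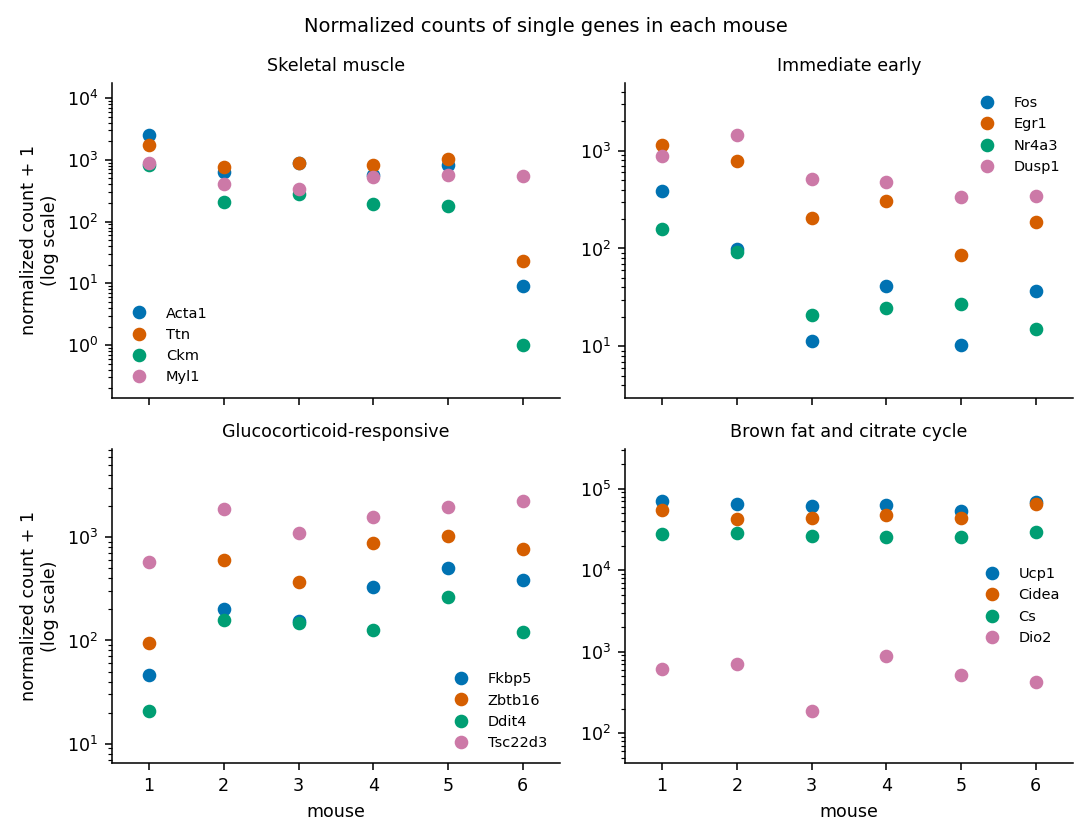
Normalized count + 1 on a log scale in each of the 6 mice for 16 genes in 4 panels; each point is 1 gene in 1 mouse, and the replicates have no order. Mouse 6 stands low for Acta1, Ttn and Ckm but not Myl1, mice 1 and 2 stand high for Fos, Egr1 and Nr4a3, mouse 1 stands low for the glucocorticoid-responsive genes, and Ucp1, Cidea and Cs stay level.

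Respiratory chain genes had a common order of the mice. None of the 82 with enough reads varied and 4 were steady, where 1.18% and 9.18% of all genes did so, and their median spread was 0.303, against 0.233 over all genes. In 78 of them both highest values were in mice 1 and 6, as in 17.8% of all genes. The same held for 69 of 81 cytosolic and 49 of 74 mitochondrial ribosomal protein genes. Cox8b had normalized counts of 23922, 14329.6, 12286, 13282, 18087 and 28906 and Ndufa1 of 8893, 4859, 4935, 5284, 7159 and 10599, and in both genes mice 1 and 6 were the 2 highest. Gene length moved with this order. Over all genes under 700 exonic bases the median deviation from the mean of the 6 mice on the log2 scale was 0.31 in mouse 1 and 0.45 in mouse 6, and -0.22, -0.23, -0.23 and -0.07 in mice 2 to 5. Over genes of 8000 bases or more it was -0.11 in mouse 1 and -0.18 in mouse 6, and 0.06 to 0.11 in the others. Respiratory chain genes of 1000 bases or more deviated by 0.26 in mouse 1 and 0.35 in mouse 6, and those under 1000 bases by 0.34 and 0.51. The part of length in their common order was not tested beyond these values.

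**Figure D5:**
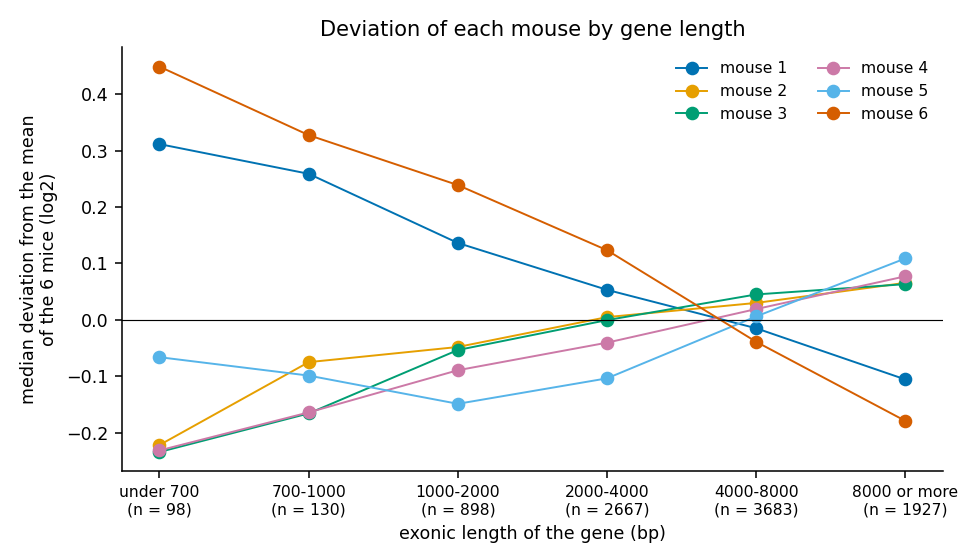
Median over genes of the deviation of each mouse from the mean of the 6 mice, on the log2 scale, by exonic length of the gene in base pairs, with the number of genes per bin. Mice 1 and 6 fall from 0.31 and 0.45 at under 700 bp to -0.11 and -0.18 at 8000 bp or more, and the other 4 mice take the opposite course.

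Genes of fatty acid synthesis were instead often lowest in mice 1 and 6. None of its 17 genes with enough reads varied and none was steady, where 1.18% and 9.18% of all genes did so. In 10 of the 17 both lowest values were in mice 1 and 6, as in 17.2% of all genes. Acly had 22093, 33669.7, 37667, 31502, 31262 and 13089.8, Fasn had 142445, 214470, 235980, 198192, 195735 and 135614 and Scd1 had 281472, 347204, 392751, 320567, 200220 and 205112, so that Scd1 was lowest in mice 5 and 6. The span from highest to lowest was 2.88-fold for Acly, 1.74-fold for Fasn and 1.96-fold for Scd1. Thrsp had another order, with 50402, 48045, 45174, 53177, 45636 and 57425. The exons of Fasn and Scd1 span 10947 and 4892 bases, and the part of length in these values was not tested.

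Other varying genes belonged to no large list and were named by their rank in spread or after their values were seen. Rab6b, a small GTPase, was high in mouse 4 alone with 66.1, 21.3, 67.0, 434, 29.0 and 4.97. Mfsd2a, a transporter of lysophospholipids that is raised by fasting and cold in BAT, had 25.8, 84.4, 85.9, 763, 547 and 310. Lgr6, a receptor of R-spondins, had 215, 131, 17.0, 703, 408 and 196. Rbp4, the carrier of retinol in blood, had the largest spread of the secreted factors with 1970, 6288, 8170, 1988, 4078 and 7444, and Lep, leptin, had 125, 433, 192, 100.1, 132 and 268. Ifi27l2a, an interferon-responsive gene, had 3297, 2928, 1743, 2454, 8971 and 4944. Of the 7 interferon genes with enough reads it was the only 1 that varied, where 1.18% of all genes did so. Of the 20 genes with the largest spread 11 were muscle markers, and 3 more, Mybpc1 and Mybpc2, which encode myosin-binding proteins of muscle, and Tcap, which encodes the titin cap, were not on the list.

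Few of the brown fat genes varied, but as a list they were not steadier than all genes. Of 44 with enough reads 2 varied, Dio2 and Fbxo31, and 4 were steady, Kcnk3, Nrg4, Pank1 and Tfam, where 1.18% and 9.18% of all genes did so. The median spread of the list was 0.294, against 0.233 over all genes. Ucp1 had a spread of 0.147, and its highest count was 1.32-fold above its lowest.

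The steadiest abundant genes came from several functions. Among genes with a mean of 1000 or more Cyp2e1, a cytochrome P450, had the smallest spread, 0.0340, with 2049, 2072, 2052, 1971, 1963 and 2058, close to the 0.0315 that counting alone gives. Vldlr, a lipoprotein receptor, followed with 2340 to 2543, then Csnk1a1, a casein kinase, with 1681 to 1839 and G6pdx, the first enzyme of the pentose phosphate pathway, with 2235 to 2493. The other 6 of the first 10 were Kif5b, Gars, Lpp, Slc2a4, Adipor2 and Actr1a. Slc2a4 had 3537, 3596, 3504, 3413, 3232 and 3260, and Adipor2, an adiponectin receptor, 4063 to 4507. The citrate cycle had 8 of 19 genes steady and a median spread of 0.136, and the 7 uniporter genes had a median spread of 0.129. Cs had normalized counts of 27851, 28858, 26196, 25756, 25556 and 29629. Lipid droplet and lipolysis genes had 5 of 15 steady, including Pnpla2 and Lipe, hormone-sensitive lipase. Beside these counts, 9.18% of all genes were steady, and 16.5% of those with a mean of 1000 or more. What part abundance has in the steadiness of these lists was not tested.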

How the data were processed

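RNA from BAT of 6 control mice at RT was analysed. The authors prepared Smart-seq2 libraries, sequenced both ends with reads of 25 bases, aligned them with STAR 2.4.0j to mm10 with GENCODE annotation and counted uniquely mapped exonic reads with HTSeq irrespective of strand. They kept genes with at least 8 reads in 6 or more samples of the series and deposited normalized counts, a signal in which reads were scaled by a size factor per sample, computed with DESeq2. A further deposited table of fold changes and p-values from the authors' own comparisons between groups was not used.

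Reads were recovered as whole multiples of the value of 1 read, with all 14651 genes of all 6 mice within 0.001 of a whole number. Read numbers give counting error only, since PCR copies are not independent molecules. At this depth a normalized count of 50 rests on about the same number of reads. Exonic lengths are unions of all exons in GENCODE M21, found for 14165 genes (96.7%) by current or older symbol. Symbols turned into dates (19) were kept in totals and are not named. The number of sample columns without a label was 0.

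The design had 1 group, so shares, ranks and rules of size were used and no test. Named genes were the 20 with the largest share, the 20 highest nuclear levels, the brown fat list, the 20 with the largest and 10 with the smallest spread, up to 6 members with most reads of every other list and the uniporter genes. Some genes that this rule picks are not reported here. Other genes and the paralog pairs were chosen after their values were seen. The members and gene lists were chosen with earlier results of these data known. Alternatives were length scaling, other denominators, pseudocounts of 0.5 and 10, other minimum means, quantile, 75th percentile and edgeR (version 4.0.16, R version 4.3.3) TMM scaling, dispersions of edgeR, and each mouse left out. Tables were read with pandas version 2.3.3 and numpy version 2.4.6 under Python version 3.11.15, and figures drawn with matplotlib version 3.10.9.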

Additional observations from a re-analysis of the deposited data

Results flagged for a closer look

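In 12 of the 139 genes named in the text with enough reads, 1 mouse lay far from the other 5 by Dixon's ratio, the gap to the nearest mouse over the whole range, on the log2 scale. The limit used marks about 1 in 20 groups of values by chance alone, and over all genes it marked 475 of 9491, or 5.00%. Some of the 139 genes were named for a large spread or after their values were seen. Their 12 therefore cannot be weighed against these rates and are given as values only. Mouse 6 was far below in the muscle genes Ttn (ratio 0.808), Ckm (0.773), Mybpc1 (0.753), Acta1 (0.738), Tcap (0.656) and Mybpc2 (0.652). Mouse 2 was far below in mt-Nd5 (0.701), mt-Cytb (0.682) and mt-Nd2 (0.631), and it was also the lowest in the other mitochondrial mRNAs measured. Mouse 1 was far below in Ddit4 (0.688) and far above in Hspa8 (0.639). Mouse 3 was far above in Slc8b1 (0.798), with a normalized count of 137. Of the list shares, mouse 2 was far above for the uniporter genes (0.670, at 0.0442% of reads) and the white adipocyte markers (0.677, at 0.0159%), and mouse 5 for the interferon genes (0.628, at 0.0849%). A share depends on the rest of the reads, and mouse 2 had the lowest mitochondrial share, 23.1%. As summed normalized counts the uniporter genes were at 5119 in mouse 2 and 5144 in mouse 1, within a 1.11-fold range. Mouse 2 was thus not far from the others on that scale. The white adipocyte markers were still highest in mouse 2, at 1840.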

How the results depend on the processing

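No paired analysis was possible because 1 group was described and no test was made. Of the values of this report that describe a list, a count or an order, 207 stayed within the spread between mice, or within 1.5 times for counts, under an alternative, and 30 moved. A list share or marker sum averaged with 1 mouse left out, or a median of the mice, cannot leave that spread. Many of the 207 were of this kind, so their number is no measure of robustness. On the length-scaled level the mitochondrial mRNAs took 28.3% and the mitochondrial rRNAs 22.8%, the nuclear respiratory chain 8.94%, brown fat genes 2.84%, fatty acid synthesis 2.18%, beta-oxidation 1.75%, the citrate cycle 1.40% and cytosolic ribosomal proteins 0.627%. With the mitochondrial genome out of the denominator, in the same order from the respiratory chain on, the shares were 8.71%, 2.30%, 7.18%, 3.17%, 3.85% and 0.638%. The leading 1, 10, 50 and 100 genes took 5.75%, 16.6%, 30.6% and 38.6% without the mitochondrial genome, where 240.3 genes held 50% of reads. On the length-scaled level they took 21.8%, 52.5%, 65.0% and 71.0%, and 9.50 genes held 50%. Without the minimum mean 1459 genes varied, many of them with few reads, and at a minimum mean of 200, which tests fewer genes, 35 did. With the muscle markers left out, an alternative chosen after seeing the data, 97 varied. With 1 mouse left out 83 to 105 genes varied and 1186 to 1704 were steady, 1704 without mouse 5 and 1635 without mouse 6. Of the 20 genes with the largest spread 13 stayed among the first 20 by the CV beyond counting error, and 6 to 19 with 1 mouse left out. Without mouse 6 it was 6, and no muscle marker was among them. TMM scaling gave 110 varying and 926 steady genes and quantile normalization 111 and 1061. Depth limits the low genes. Fgf21, Bmp8b and Zic1 rest on 0 to 43 reads in a mouse.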

Other observations

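Some genes stood at 2 levels among the 6 mice, with a gap of at least 4-fold in normalized count + 1 and no value between. There were 16 of them among the 13116 genes whose normalized counts averaged at least 10, and 7 were pseudogenes. They were singled out after their values were seen and are given as values. Gbp2b, an interferon-induced GTPase, was at 0 reads in mice 1, 3, 4 and 5 and at normalized counts of 101 and 86.4 in mice 2 and 6. Gm6123, a processed pseudogene on chromosome 1, had 54.7, 527.5, 522, 68.5, 61.1 and 457. Rnf150 on chromosome 8 had 104, 105, 6.61, 14.1, 121 and 123.2. Serpina12, the adipokine vaspin, had 27.4, 0, 0, 58.7, 29.0 and 0.

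The same mice were low in several of these. Gm9625, Gm8730 and Rplp0-ps1 were low in mice 3 and 5, and Ugt1a6b, Gm7889 and Chil1, all on chromosome 1, in mice 4 and 5. Ifi202b was at 0 in mice 3 and 5 but also only at 3.26 in mouse 4, against 27.8 in its highest mouse. Ifi202b, Gm7889 and Chil1 rested on few reads, with mean normalized counts of 11.7, 10.1 and 12.7. Gm9625 had 208, 184, 18.9, 305, 16.6 and 181, and Gm8730 had 87.4, 97.9, 19.8, 122.9, 15.5 and 82.4. Counts of pseudogenes and of near-identical copies are uncertain, since reads of 25 bases can fit more than 1 copy.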
